A study of Mus musculus with 2 samples.

Results

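Mir10a, Mir10b, Mir196a-1, Mir196a-2, Mir196b and Mir615 are the 6 microRNA genes that lie inside the Hox clusters of the mouse and have an entry in the count tables. They were selected by gene symbol, without a threshold on level, and are 6 of the 1973 microRNA genes counted. The material was liver of newborn pups (postnatal day 0) of strain B6NCrl from 1 pregnant female, in 2 libraries, with sex not recorded. Replicate 1 is called pup 1 here and replicate 2 is called pup 2. The library descriptions number them as biological replicates and do not say whether a library held tissue of more than 1 pup. No pup was treated and no second tissue or age was part of the series used here, so the libraries form 1 group of 2. Total RNA was sequenced as microRNA libraries with inserts under 30 bases, and whole liver mixes all cell types of the organ.

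Hox genes encode transcription factors that set position along the body axis. In each cluster the low-numbered genes, at the anterior end, act in the head and neck region and the high-numbered genes, at the posterior end, act towards the tail. Mir10 genes sit beside Hox genes of group 4, Mir196 genes sit near Hox genes of group 9, and Mir615 lies in an intron of Hoxc5. A microRNA gene is transcribed as a hairpin, which is cut into a 5p and a 3p arm of little over 20 bases. The loaded arm pairs with messenger RNAs mainly through bases 2 to 8, its seed, and lowers their output. Mir10b is known to target Hoxd10 and Mir196 genes are known to target Hoxb8.

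The mature sequences show which members can repress the same messages and which can be told apart in reads. RefSeq on GRCm38.p6 held the mature arms of 6 of 6 genes, 12 entries with 11 distinct sequences. They are written 5′ to 3′ with the seed in capitals.
miR-10a-5p: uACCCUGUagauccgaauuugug
miR-10b-5p: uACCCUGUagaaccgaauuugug
miR-196a-5p: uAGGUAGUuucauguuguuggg
miR-196b-5p: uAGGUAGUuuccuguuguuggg
miR-615-3p: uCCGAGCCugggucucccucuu
miR-615-5p: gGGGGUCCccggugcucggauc
The 5p arms of Mir10a and Mir10b had the same seed, ACCCUGU, and differed at 1 of 23 bases, U12A from miR-10a to miR-10b, counted from 1 at the 5′ end. Those of the Mir196 genes shared the seed AGGUAGU, and miR-196a and miR-196b differed at 1 of 22 bases, A12C. Both families thus had their only 5p difference at position 12, outside the seed. Neither arm of Mir615 shared its seed with another entry among 1679 mature sequences. The Mir615 arms were also the richest in G and C of the members' arms, with 77.3% in the 5p arm and 63.6% in the 3p arm, against 36.4% to 59.1% in the arms of the other members.

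The hairpins of the Mir10 and Mir196a genes show where reads of a given gene can be recognised. The arms are in capitals.
Mir10a: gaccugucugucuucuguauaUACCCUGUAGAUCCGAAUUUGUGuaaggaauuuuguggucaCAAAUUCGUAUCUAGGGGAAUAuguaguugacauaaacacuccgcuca
Mir10b: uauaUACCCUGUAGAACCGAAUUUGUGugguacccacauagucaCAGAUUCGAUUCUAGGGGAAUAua
Mir196a-1: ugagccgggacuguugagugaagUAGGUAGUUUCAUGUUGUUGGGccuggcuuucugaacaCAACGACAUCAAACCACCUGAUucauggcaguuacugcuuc
Mir196a-2: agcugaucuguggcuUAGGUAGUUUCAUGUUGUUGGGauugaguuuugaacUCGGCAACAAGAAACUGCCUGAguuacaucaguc
The 5p arm of Mir196a-1 and Mir196a-2 is identical over its 22 bases, so a read confined to that arm maps to both loci. Reads at several loci were counted on no gene. That leaves the 3p arms, different in the 2 genes, and any reads that run past the 22 shared bases to be counted. The longest stretch shared by the Mir10a and Mir10b hairpins was 15 bases, and the first 12 bases of each 5p arm were in no other of 2202 annotated microRNA hairpins, on either strand. The same held for the first 12 bases of the Mir196b 5p arm. Exact reads of the arms of Mir10a, Mir10b, Mir196b and Mir615 thus have 1 place among microRNA hairpins. The Mir196a levels leave out reads confined to the 5p arm. The search was for exact matches, and whether reads with a mismatch were counted is not known here. The 5p arms of Mir10a and Mir10b differ at 1 base, as do those of Mir196a and Mir196b, and miscounting between them was not tested.

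The depth was 6028986 reads in replicate 1 and 8277738 in replicate 2, of which 3422622 and 4538427 fell on the gene strand of a microRNA. Each level is a gene's share of that number, scaled to 1000000 (CPM), with no correction for length because mature arms are of nearly equal length. Mir122, the microRNA that marks hepatocytes, took 34.2% and 35.5% of the counts. Reads at several loci made up 25.2% and 24.7% of all reads. Intervals are exact Clopper-Pearson 95% intervals, and a count of 0 allows 3 counts, or 0.877 CPM in replicate 1 and 0.661 CPM in replicate 2. They cover counting error only, and PCR copies of a molecule are counted as separate reads.

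Mir10a carried most of the uniquely mapped counts of the Hox cluster genes. It lies in the Hoxb cluster on chromosome 11 (mm10, 96317165 to 96317274, plus strand), 993 bases upstream of Hoxb4 and in no annotated protein gene. Its level was 3478 CPM in replicate 1 (11903 counts, interval 3416 to 3541) and 3365 CPM in replicate 2 (15274 counts, 3312 to 3419), or 3422 ± 79.4 CPM (SD, n = 2). Both pups were thus within a few percent of each other. It ranked 43 and 42 among the microRNA genes and was 21.3 times the median of 160 CPM over the 312 genes with at least 10 counts in each library. It made up 93.1% and 91.5% of the counts of the 6 genes. That share leaves out reads confined to the 5p arm of the Mir196a genes. The ratio of Mir122 to Mir10a averaged 102.

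Mir10b, the Hoxd counterpart with the same seed, was far lower. It lies on chromosome 2 (74726070 to 74726137, plus strand) in introns of annotated Hoxd3 and Hoxd4 transcripts. Its level was 134 CPM in replicate 1 (459 counts, 122.1 to 147) and 171 CPM in replicate 2 (778 counts, 160 to 184), or 153 ± 26.4 CPM. The pups did not overlap within counting error, replicate 2 being higher. Mir10a stood 25.9 times above Mir10b in replicate 1 (interval 23.6 to 28.5) and 19.6 times in replicate 2 (18.3 to 21.1). The gap between the genes, 3269 CPM, was far larger than the sum of their SDs, 106 CPM. Together the pair with seed ACCCUGU held 3612 and 3537 CPM.

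Mir196b, at the posterior side of the Hoxa cluster, was the only Mir196 gene with a sizeable count. It lies on chromosome 6 (52230081 to 52230165, minus strand), in an exon of 2 annotated Hoxa9 transcripts and an intron of 1, and 1032 bases from Hoxa10. Its level was 115 CPM in replicate 1 (394 counts, 104 to 127) and 128 CPM in replicate 2 (580 counts, 118 to 139), or 121 ± 8.97 CPM. The intervals of the pups overlapped. Mir10b exceeded Mir196b within each pup, by 1.16 times (1.02 to 1.34) and 1.34 times (1.20 to 1.496). Across the pups their gap of 31.3 CPM was smaller than the sum of their SDs, 35.4 CPM, a comparison that sets aside the pairing within a pup. The order of these neighbours was the same in both pups, but 2 pups are too few to test it. The Mir10a level was 30.2 and 26.3 times that of Mir196b.

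Mir615, between Hoxc4 and Hoxc6, was low but counted in both pups. It lies on chromosome 15 (103014910 to 103015001, plus strand) in an intron of 2 annotated Hoxc5 transcripts. Its level was 6.72 CPM in replicate 1 (23 counts, 4.26 to 10.1) and 11.9 CPM in replicate 2 (54 counts, 8.94 to 15.5), or 9.31 ± 3.66 CPM. The intervals overlapped and the higher value was again in replicate 2. Mir196b stood 17.1 times (11.3 to 27.3) and 10.7 times (8.12 to 14.5) above it.

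The Mir196a genes were at or near 0 in uniquely mapped reads. Mir196a-2, on chromosome 15 (102973350 to 102973434) between Hoxc10 and Hoxc9 and in an intron of 1 Hoxc5 transcript, had 4 counts in replicate 1 and 2 in replicate 2. That is 1.17 CPM (0.318 to 2.99) and 0.441 CPM (0.0534 to 1.59), which overlap. Mir196a-1, on chromosome 11 (96265164 to 96265265) between Hoxb9 and Hoxb13, had 0 counts in both. For miR-196a-5p itself these values set no upper limit. Reads confined to it would fall among the 1520712 and 2044197 reads that mapped to several loci. On the opposite strand the 6 genes had no counts apart from 1 at Mir196a-2 in replicate 2.

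**Figure D1:**
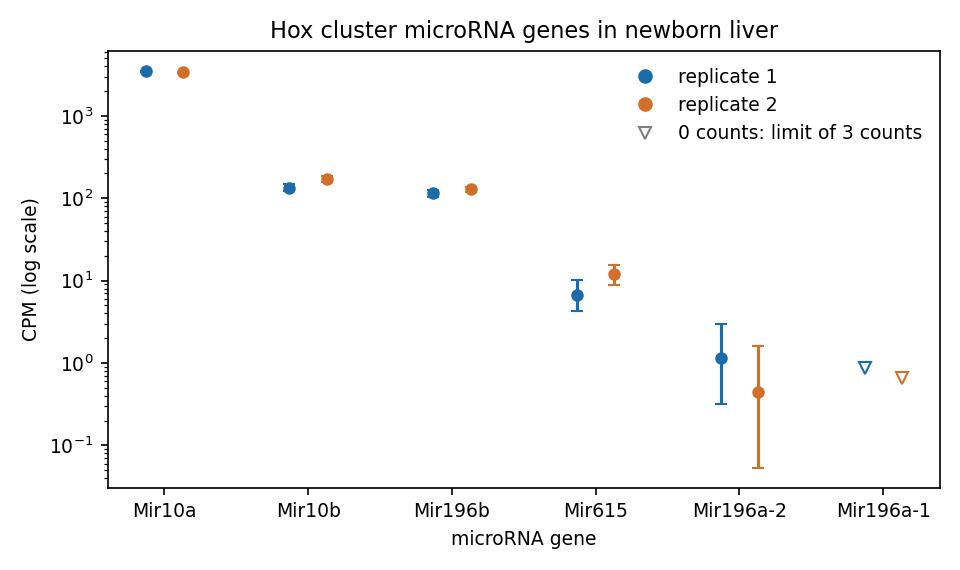
Level of each Hox cluster microRNA gene in CPM (log axis) in replicate 1 and replicate 2, with exact 95% intervals; open triangles mark the limit that 0 counts allow. Mir10a stands at 3478 and 3365 CPM, Mir10b and Mir196b between 115 and 171 CPM, Mir615 between 6.72 and 11.9 CPM, and the Mir196a genes at about 1 CPM or below.

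Position along the clusters was then set beside the levels. Distances are from the outer end of the most anterior Hox gene of each cluster. Mir615 lay 21.9 kb from it in Hoxc, Mir10b 39.0 kb in Hoxd, Mir10a 51.0 kb in Hoxb, Mir196a-2 63.5 kb in Hoxc, Mir196b 74.5 kb in Hoxa and Mir196a-1 103 kb in Hoxb. The highest and the second gene by mean level, Mir10a and Mir10b, were beside or within the group 4 genes of their clusters. Mir615 also lay near a group 4 gene, 3933 bases from Hoxc4, at a mean of 9.31 CPM. The levels did not simply fall along the axis, however. Mir615 was the most anterior by distance and only the fourth by level, below Mir196b, which was 70.8% of the way along its cluster. Within Hoxc, the cluster with 2 members that had counts, anterior Mir615 had more counts than posterior Mir196a-2 in both pups, 23 against 4 and 54 against 2. In Hoxb anterior Mir10a was high and Mir196a-1 was at 0. Both comparisons with a Mir196a gene are limited by the uncounted reads of its 5p arm. With 6 genes in 4 clusters no trend was tested.

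**Figure D2:**
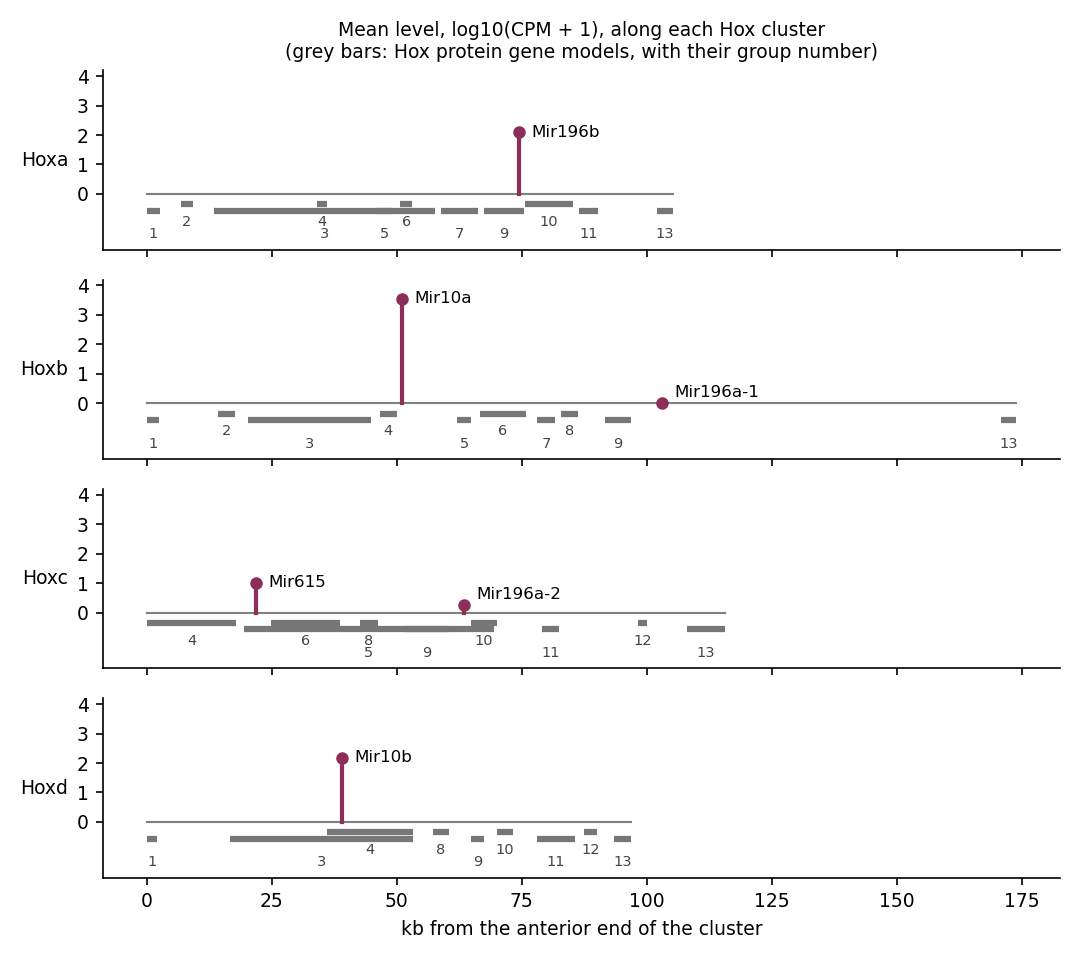
Mean level as log10(CPM + 1) against the distance in kb from the anterior end of each Hox cluster; grey bars are the annotated Hox protein gene models, labelled with their group numbers and overlapping where transcripts span several genes. Mir10a and Mir10b stand by group 4 of Hoxb and Hoxd. Mir196b stands within the group 9 gene model of Hoxa, near group 10, and Mir196a-1 is drawn at 0.

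Genes of like level give these values a scale. The 3 genes nearest to Mir10a over the 2 libraries, by distance in log2(CPM + 1), were Mir423 (0.08), Mir148a (0.09) and Mir652 (0.11). Mir423 had 3609 and 3510 CPM, while Mir148a, which is enriched in liver, had 3694 and 3306 CPM. With only 2 libraries this measure compares levels, not patterns. By mean level, Mir148a and Mir652 stood just above Mir10a and Mir106b and Mir107 just below. Mir10b had Mirlet7a-1 and Mir222 above it and Mir92-2 and Mir669o below it. Mir196b lay between Mir34a and Mirlet7a-2 above and Mir671 and Mir370 below, these 4 with means from 116 to 124 CPM. Mir615 lay between Mir215 and Mir19b-1 above and Mir7219 and Mir291a below, all with means from 8.98 to 9.67 CPM. Of these 16 genes, 15 differed from their member by less than the sum of the SDs, the exception being Mir106b below Mir10a, so these places are approximate. Mirlet7a-1, Mirlet7a-2, Mir92-2 and Mir19b-1 each make an arm that lies whole in the hairpin of another microRNA gene. Their counts leave out reads confined to that arm, and their places here are no measure of let-7a, miR-92a or miR-19b. Mir669o and Mir7219 were not checked for this.

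By uniquely mapped counts, of 6 relatives of the Mir10 genes outside the Hox clusters, Mir99a and Mir99b were more abundant than Mir10a and the other 4 were less abundant. Mir99a, Mir99b and Mir100 make 5p arms that resemble miR-10 but have another seed, ACCCGUA, and the Mir125 genes are usually transcribed with them.
miR-99a-5p: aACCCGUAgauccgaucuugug
miR-99b-5p: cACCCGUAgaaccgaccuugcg
miR-100-5p: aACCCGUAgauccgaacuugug
The longest stretch that miR-10a-5p shared with these was 11 bases, in miR-100. All 6 passed the minimum of 10 counts per library, with a sum of 27234 and 27566 CPM. That was 7.29 and 7.50 times the sum of the Hox cluster genes, 3735 and 3677 CPM. Mir99a stood at 17268 ± 209 CPM, 4.92 and 5.17 times Mir10a, and Mir99b at 7595 ± 15.8 CPM, 2.18 and 2.26 times Mir10a. Mir125a (1712 ± 68.8 CPM) and Mir100 (625 ± 64.9 CPM) were below Mir10a and above Mir10b. Mir125b-2 (162 ± 3.68 CPM) was not separated from Mir10b, and Mir125b-1 (38.8 ± 10.6 CPM) was below it. The Mir125b pair shares its 5p arm, so those counts are lower limits.

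**Figure D3:**
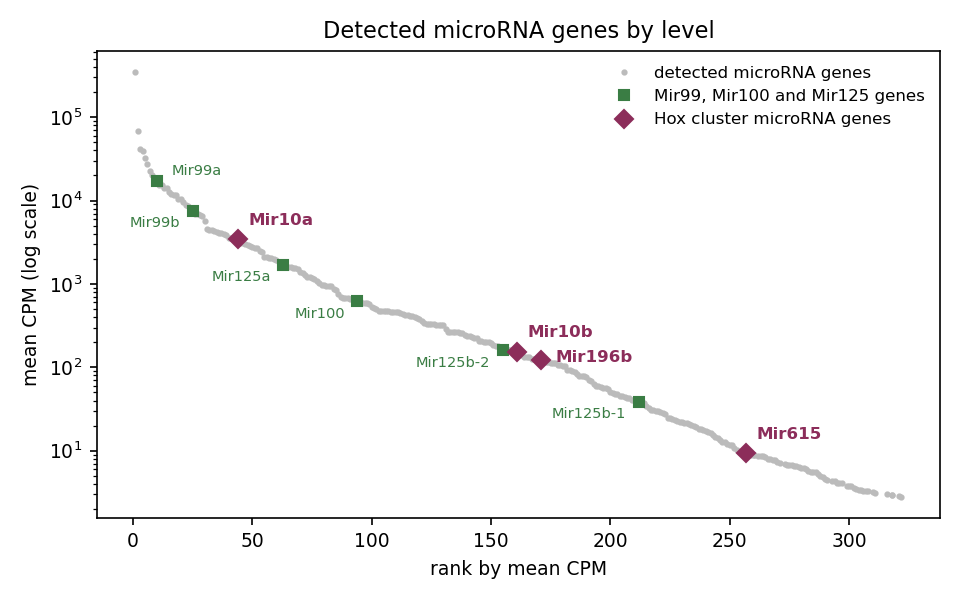
Mean CPM (log axis) against rank for the microRNA genes with at least 10 counts in each library. The 4 Hox cluster genes detected (diamonds) are spread from rank 44, Mir10a, to rank 257, Mir615, and the Mir99, Mir100 and Mir125 genes (squares) from rank 10 to rank 212.

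The pups were compared gene by gene with a two-sided exact binomial test of the counts, adjusted by Benjamini-Hochberg over all 390 genes with at least 10 counts in total. The test asks whether these libraries differ by more than counting error and says nothing of a condition. Mir10b was higher in replicate 2, by a log2 ratio of 0.35 (interval 0.19 to 0.52; exact binomial adjusted p = 0.000149). Mir10a was lower in replicate 2 by a small amount, a log2 ratio of -0.05 (-0.08 to -0.01; exact binomial adjusted p = 0.0261). Mir615 had a log2 ratio of 0.82 (0.10 to 1.60), which did not pass (exact binomial adjusted p = 0.0659). Mir196b had 0.15 (-0.04 to 0.34) and did not pass either (exact binomial adjusted p = 0.260). So 2 of the 4 members tested were called, in opposite directions, against 30.3% of all genes tested, 15.9% higher and 14.4% lower in replicate 2. The other 2 members had too few counts to be tested. The median log2 ratio of the 4 was 0.25, beside 0.00 over all genes tested.

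The exact test of edgeR, with a negative binomial spread estimated from the same 2 libraries, called 0 of the 4 members, and 0 had an unadjusted p under 0.05; it called 0.513% of all genes tested. That spread was estimated with the 2 pups as replicates, so it holds the very difference tested. The missing calls are therefore no sign that the pups agree. The Mir10a call depended on the library size used. With Mir122 left out of the total, the Mir10a log2 ratio was -0.02 (exact binomial adjusted p = 0.474). With TMM library sizes or DESeq2 size factors the call stayed (exact binomial adjusted p = 0.0476 and 0.0179). Among the lists of cell type markers the sum for muscle had the largest fold between the pups. Its 5 genes in the table had sums of 136 and 1008 CPM, nearly all of it Mir206, with Mir1a-1, Mir133a-1 and Mir133a-2 at 0. The mature arms miR-1a and miR-133a are each made from more than 1 locus, so their reads can map to several loci and these zeros set no limit on them. Replicate 2 had the higher sum, and its part in the Mir10b and Mir615 values was not tested. The mesenchyme list, 4 of 5 genes detected, summed to 14991 and 15784 CPM and endothelial Mir126a to 65978 and 69174 CPM, both a little higher in replicate 2. Most of the mesenchyme sum was Mir143, at 13832 and 14617 CPM. Both arms of Mir199a-1 and Mir199a-2, and 1 arm each of Mir194-2 and Mir451a, lie whole in other microRNA hairpins. Reads confined to those arms were left out of the counts. Mir122, Mir143, Mir145a and Mir486 were not checked for this. The hepatocyte list, 4 of 4 genes detected, summed to 357774 and 369431 CPM. Mir122 was its 1 gene called higher in replicate 2 by the exact binomial test, while Mir192, Mir194-2 and Mir148a were lower. The erythroid list, 3 of 3 detected, summed to 5309 and 5150 CPM, with Mir144 higher (log2 ratio 0.38) and Mir451a lower (-0.23). The other lists summed to 9147 and 8430 CPM for leukocytes (4 of 5, Mir142 not analysed here), and 1957 and 2121 CPM for intestine or pancreas (3 of 4). In a whole organ, fewer cells of a type and less RNA per cell cannot be told apart. With 2 pups the smallest two-sided p of an exact sign-flip test is 0.5, so levels of different genes were set side by side by size and spread alone.

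**Figure D4:**
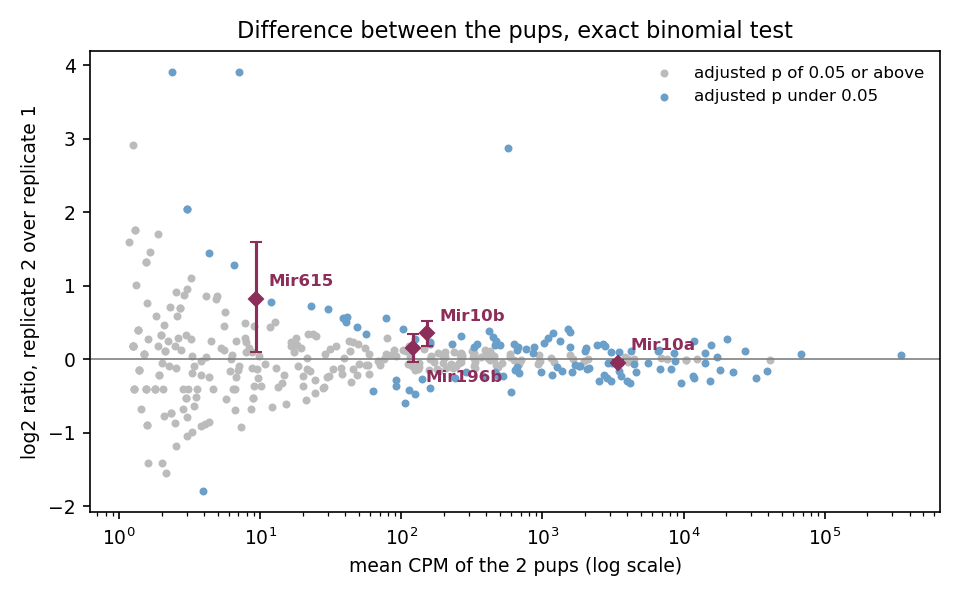
Log2 ratio of replicate 2 over replicate 1 against mean CPM (log axis) for the 390 genes tested, coloured by the exact binomial test; diamonds with exact 95% intervals are the 4 Hox cluster genes tested. Mir10a lies at -0.05, Mir196b at 0.15, Mir10b at 0.35 and Mir615 at 0.82, where genes of low level scatter widely.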

How the data were processed

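The authors deposited 1 table of raw counts of reads per microRNA gene for each library. Assembly mm10 and GENCODE release M4 were used, per the file headers in the accompanying text. The aligner and counter: not given in the sources used here. The tables give counts without regard to strand, on the gene's strand and on the opposite strand; these meanings were taken from the values, the first equalling the sum of the others in all 1973 genes. Gene-strand counts were used. Uniquely mapped reads outside them, 333144 and 499994, stayed out of library sizes.

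Symbols, positions and transcripts were taken from GENCODE M21 (also mm10), which named 1894 of 1973 identifiers; the 79 others held 0 counts. The identifiers of Mir10b and Mir196a-2 have another version number there, so their counted spans may differ. Sequences are RefSeq's on GRCm38.p6; hairpins were found for 5 of the 6 genes. Each count covers both arms of a hairpin, and differences in ligation between sequences were not corrected.

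Means and SDs are over 2 pups. The binomial test and intervals used scipy 1.17.1; edgeR 4.0.16 gave TMM sizes and the negative binomial exact test (common dispersion from an intercept-only design, biological coefficient of variation 0.130), and DESeq2 1.42.0 gave size factors. No quasi-likelihood test was made, as there is 1 group. Members and lists were chosen with earlier results of these data known. Named genes were the 6 members, the 2 genes above and the 2 below each detected member, the 3 nearest to Mir10a, Mir122, and the listed relatives and markers. Other microRNA genes of the clusters with an entry in the table would have been named, but there were 0. Alternatives were counts without strand, other library sizes, other filters on low counts, another test and each pup alone.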

Additional observations from a re-analysis of the deposited data

How the results depend on the processing

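The Mir10a to Mir10b ratio was 22.8 ± 4.45 with and without regard to strand, but absolute levels moved with the total they were divided by. Per 1000000 uniquely mapped reads, Mir10a stood at 3100 CPM, Mir196b at 110.0 CPM and the 6 genes together at 0.336%. Counted without regard to strand, Mir10a was 3265 CPM and the share 0.354%. Without Mir122 in the total, Mir10a was 5253, Mir10b 235, Mir196b 187 and Mir615 14.3 CPM, and the share 0.569%. Each pup alone gave a share of 0.368% or 0.373% and a Mir10a to Mir10b ratio of 19.6 or 25.9. Between the pups, the negative binomial test called 2 of 390 genes in place of 118, and ended the calls of Mir10a (-0.047) and Mir10b (0.35), each with an edgeR adjusted p of 1. The spread in that test was estimated with the 2 pups as replicates and holds the difference tested, so the lost calls show no agreement. The Mir10a call also ended without Mir122 in the total, at -0.019, and stayed in the other 5 alternatives. Over the 7 alternatives the log2 ratio of Mir10b ranged from 0.35 to 0.38. Leaving out a pup could give no comparison between pups. Mir615 has 77 counts in all, which limits what its ratio can show.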

Other observations

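The seed of the Mir196 arms also occurs in the let-7 family, displaced by 1 base. In let-7g-5p, where capitals mark bases 3 to 9, the sequence reads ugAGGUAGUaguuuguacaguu. Of the 1679 mature sequences searched, 9 held AGGUAGU at bases 3 to 9. These were let-7a, let-7b, let-7c, let-7d, let-7f, let-7g, let-7i, miR-98 and miR-1961, made from 11 genes. The 11 genes are those with an entry for the arm, and Mirlet7a-2 had none for let-7a-5p. The seed of miR-10 occurred at bases 3 to 9 in 1 of the mature sequences, miR-7023-3p. These are matches of letters and say nothing of targets in liver.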
